A study of Arabidopsis thaliana with 9 samples.

Results

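The genes described here are the 69 protein-coding genes of the Arabidopsis thaliana plastid genome that had a probe set of their own on Affymetrix ATH1 arrays. They were taken by locus tag or by their place on the plastid chromosome of RefSeq TAIR10.1, and they make up 69 of the 13356 genes that the annotation pairs with a probe set listed for that gene alone. Each of the 69 had 1 such probe set. By symbol they fell into 5 psa genes (photosystem I), 15 psb genes (photosystem II), 6 pet genes (the cytochrome b6f complex), 6 atp genes (ATP synthase), 10 ndh genes (the NADH dehydrogenase-like complex), 4 rpo genes (the plastid RNA polymerase), 7 rpl and 8 rps genes (the large and small ribosomal subunits) and 8 others. These others were rbcL, matK, ycf3, accD, ycf4, cemA, clpP and ccsA. A further 7 plastid genes had probe sets listed for several plastid entries of the same symbol, such as the copies in the inverted repeat. They are called genes with shared probe sets and are given separately.

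The plastid genome descends from that of a cyanobacterium and encodes core parts of the photosynthetic complexes together with part of its own transcription and translation machinery. A bacterial-type polymerase, whose core subunits are the rpo products, reads most photosynthesis genes, while phage-type polymerases encoded in the nucleus read some housekeeping genes, including the rpoB-rpoC1-rpoC2 cluster. Most plastid genes lie in clusters that are read together into long RNAs and then cut, and these RNAs mostly lack the stable poly(A) tails of nuclear messages, from which array labelling usually starts.

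Total RNA came from whole wild-type seedlings of the accessions Col-0 and WS, roots included, at 10 days of age. They had been stratified for 3 days and grown on Gamborg's medium with 0.7% agar and no sucrose, in constant light of 60 to 80 microE at 22 °C. The 3 groups were Col-0 moved to another chamber at 22 °C as a mock treatment (2 arrays), Col-0 moved to 4 °C for 24 h (5 arrays) and WS, written WS2 in one label, moved to 4 °C for 24 h (2 arrays). Among the cold Col-0 arrays, 2 bear the name set 4, written here as set4-1 and set4-2, and no WS array at 22 °C was used. Nothing in the labels tells if replicates were grown apart. The p-values therefore cover the spread among these arrays, which may be technical, and the small number of arrays limits the precision.

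The plastid genes stood out by how much they differed between arrays of the same group. Values are log2 signals, so a difference of 1 is a 2-fold difference. The mean over the 69 genes was 9.38 and 10.37 on the arrays at 22 °C. It was 9.74, 9.51, 10.17, 9.04 and 10.05 on the cold Col-0 arrays (replicates 1, 2 and 3, set4-1 and set4-2) and 10.06 and 9.34 on the WS arrays. The group means were 9.88 ± 0.70 (SD, n = 2), 9.70 ± 0.45 (n = 5) and 9.70 ± 0.51 (n = 2), so the 3 groups overlapped and lay closer to each other than arrays within a group did.

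These shifts were shared by most of the genes. At 22 °C, replicate 2 was higher than replicate 1 for 63 of the 69 genes, with a median difference of 0.65, while the median over all probe sets tested was -0.01 and 47.2% of them were higher. The 5 genes that were lower there were atpA, atpI, atpE and atpB, all of ATP synthase, and rps3, and psbN was equal. The widest gap was at petL, a small subunit of the cytochrome b6f complex, with 8.03 and 11.31 on these arrays, a 9.69-fold difference within 1 condition. WS replicate 1 was higher than WS replicate 2 for 67 of 69 genes, with a median of 0.73, against 50.3% of all probe sets. The exceptions were psbM and rps14. Array set4-2 was higher than set4-1 for 53 of 69, with a median of 1.17, against 47.4% of all probe sets. The 16 genes that were lower on set4-2 included the neighbouring psbE, psbF, psbL and psbJ, the neighbouring rpl33 and rps18, and 6 further ribosomal protein genes. Replicate 3 of cold Col-0 was higher than replicate 2 for 63 of 69 genes, but there 73.5% of all probe sets were higher as well. The shift was smaller between cold Col-0 replicates 1 and 2. Replicate 1 was higher for 47 of 69 genes, with a median of 0.26, against 51.1% of all probe sets.

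**Figure D1:**
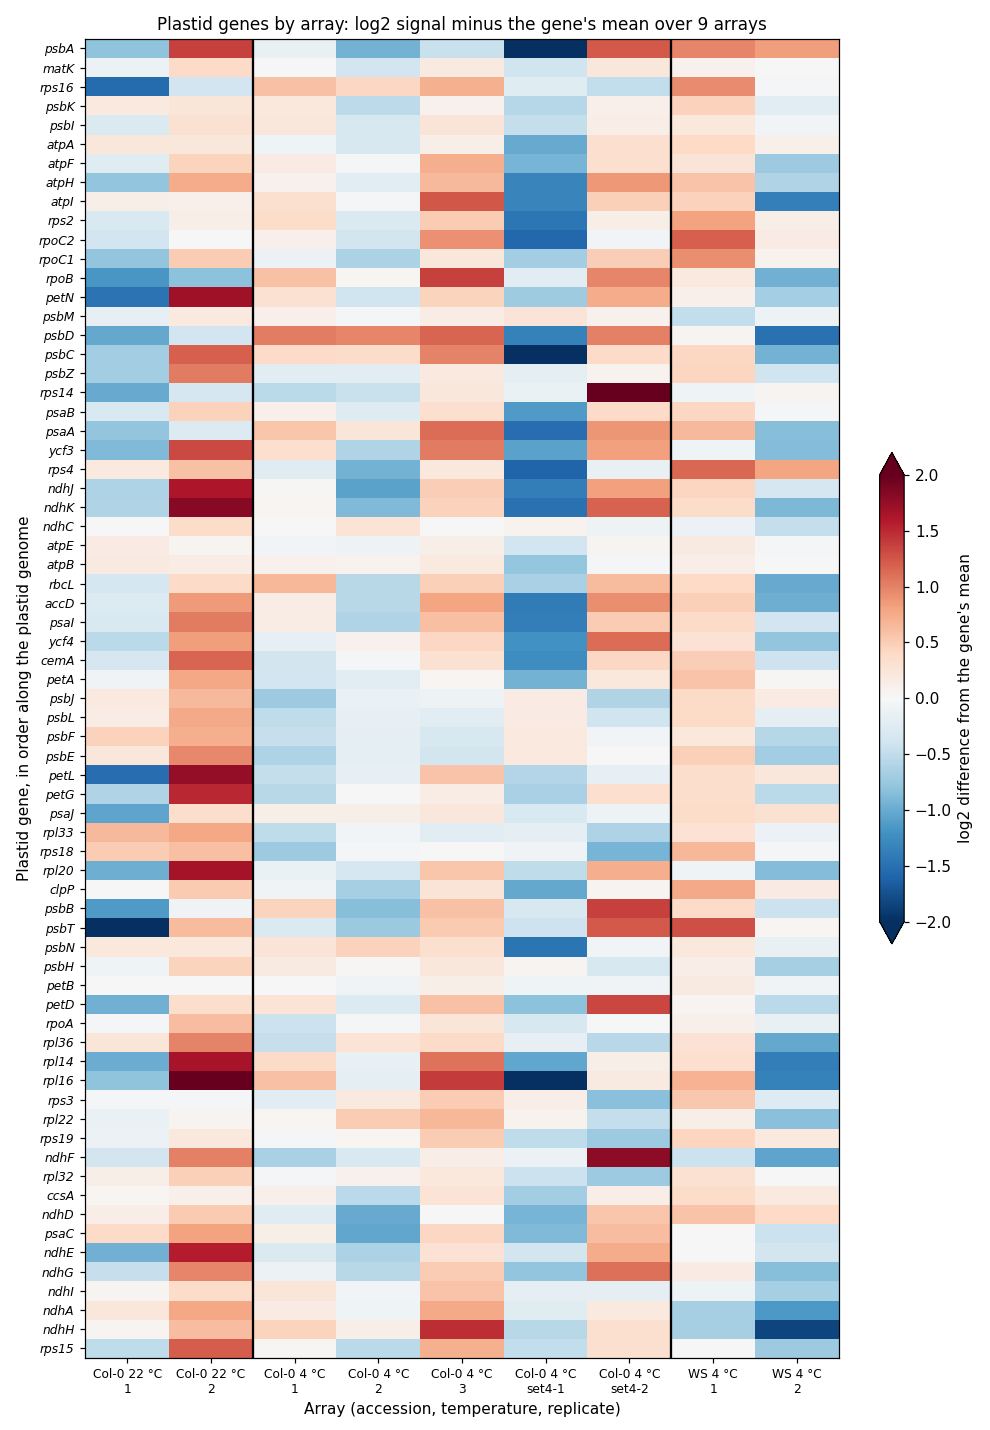
Log2 signal of each of the 69 plastid genes on each array, minus that gene's mean over the 9 arrays, with genes in order along the plastid genome and arrays in columns by group (red, above the gene's mean; blue, below it). Most of the column for set4-1 is blue and most of the column for replicate 2 at 22 °C is red, while rpl33, rps18 and the psbE to psbJ stretch keep a pattern of their own.

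The median within-group SD was 0.62 over the plastid genes against 0.19 over all probe sets tested, and only 1.66% of all probe sets exceeded 0.62. Of the 69 genes, 65 lay above the median of all. The SD ran from 0.10 for petB, which encodes cytochrome b6 and read 12.62 to 12.89 on all arrays, to 1.58 for rpl16, which read 7.05 to 11.65. By mean signal, psbM, atpE and atpB lay within 1 log2 unit of the array maxima, where changes can be compressed, and ndhF alone lay under the 30th percentile of all probe sets. Of the 11 mitochondrial genes measured, 7 were higher on replicate 2 at 22 °C, with a median of 0.10, and 6 on set4-2, with a median of 0.07, both well under the plastid medians. Between the WS arrays they moved the same way as the plastid genes, with 7 of 11 higher on WS replicate 1 and a median of 0.27. So did they between cold Col-0 replicates 3 and 2, with 8 of 11 higher on replicate 3 and a median of 0.57. On cold Col-0 replicate 1, 5 of 11 were higher than on replicate 2, with a median of -0.09. The 7 plastid genes with shared probe sets moved with the 69 in most pairs. Of these, 6 of 7 were higher on replicate 2 at 22 °C, with a median of 0.75, and 7 of 7 on set4-2, with a median of 1.43. On cold Col-0 replicate 1, 3 of 7 were higher than on replicate 2, with a median of -0.02.

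Control probe sets, which were left out of the tests, separated some of the same arrays. The probe set for 25S ribosomal RNA, another RNA without a poly(A) tail, read 10.72 on replicate 2 at 22 °C and 11.34 on set4-2, and between 5.10 and 6.49 on the other 7 arrays. The 24 probe sets for poly(A) spike-in RNA, which is added to a sample before labelling, averaged 7.10 on set4-2 and 7.17 and 7.31 on the WS arrays, and between 3.14 and 3.32 on the other 6. WS replicate 1 and cold Col-0 replicate 3 had high plastid means, 10.06 and 10.17, with 25S signals of 5.13 and 5.10. The 3 root markers measured averaged 7.32 and 7.61 at 22 °C, 7.02 to 8.31 in cold Col-0 and 7.62 and 7.77 in WS. The 2 green tissue markers measured averaged 12.96 and 12.46 at 22 °C, 11.33 to 11.80 in cold Col-0 and 11.15 and 10.82 in WS. The part of labelling, of tissue balance and of these controls in the plastid shifts was not tested.

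**Figure D2:**
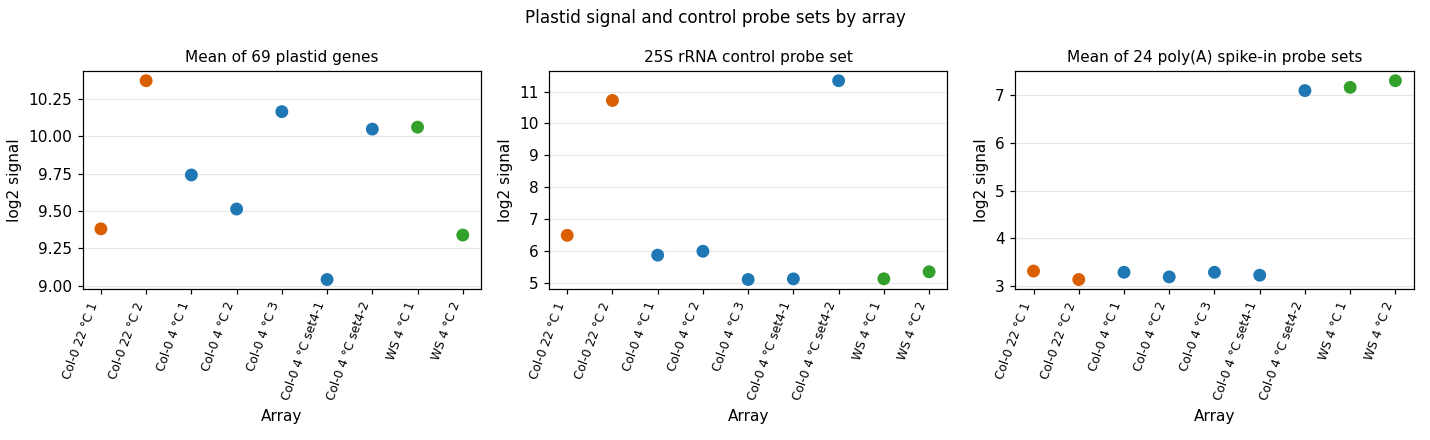
Mean log2 signal of the 69 plastid genes (left), log2 signal of the 25S ribosomal RNA control probe set (middle) and mean log2 signal of the 24 poly(A) spike-in probe sets (right) on each of the 9 arrays. The 25S probe set was high on replicate 2 at 22 °C and set4-2, and the spike-in was high on set4-2 and both WS arrays.

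The first comparison asked which plastid transcripts differed between Col-0 after 24 h at 4 °C and Col-0 at 22 °C. After cold, rpoB, which encodes the beta subunit of the plastid RNA polymerase, rose 2.91-fold from a low signal at 22 °C. The gene rpl33, which encodes a protein of the large ribosomal subunit, fell by 1.02 on the log2 scale. No other plastid gene was called. The 4 genes psbE, psbF, psbL and psbJ read between 0.68 and 0.79 log2 units lower in cold, and none of them passed both thresholds. A gene was called at an adjusted p under 0.05 in limma, Benjamini-Hochberg over all 22746 probe sets tested, together with a log2 difference of at least 1 in size. By this rule 2 of 69 plastid genes were called, against 12.0% of all probe sets. By adjusted p alone, 4 of 69 passed (rpoB, rpl33, rps18 and psbF), against 28.5% of all. Over the 69 genes, 15 differences were positive and 54 negative, with a median of -0.23 against 0.03 over all probe sets. That median was 0.25 without replicate 2 at 22 °C and -0.66 without replicate 1, so its sign rested on 1 array. In whole seedlings, fewer cells of a type and less RNA per cell cannot be told apart.

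The median standard error of the cold difference was 0.43 over the plastid genes against 0.16 over all probe sets. The 95% interval reached a 2-fold difference or more for 52 of the 69 genes in at least one direction, so for most of them a change of that size could not be told from none. For 17 genes it lay inside a 2-fold change in both directions.

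Of the polymerase genes, rpoB read 3.91 and 4.25 at 22 °C, 5.66, 5.11, 6.44, 4.85 and 6.05 in cold Col-0 and 5.27 and 4.11 in WS. Every cold Col-0 array lay above both arrays at 22 °C, while WS replicate 2 lay between them. The spike-in probe sets, which averaged 3.32 and 3.14 on the arrays at 22 °C, reached at most 4.29 and 3.75 there. The rpoB signal at 22 °C was close to these maxima, and the size of a rise from so low a signal is uncertain. The group means were 4.08 ± 0.24 (SD, n = 2) and 5.62 ± 0.66 (n = 5), a difference of 1.54 (SE 0.44, limma adjusted p = 0.0270, 95% interval 0.55 to 2.53). Among the 69 genes, rpoB was the single one whose cold arrays all lay above those at 22 °C, a pattern found in 20.5% of all probe sets. The call was lost without cold replicate 1 (1.53, adjusted p = 0.0530), without 22 °C replicate 1 (1.37, adjusted p = 0.175) or replicate 2 (1.71, adjusted p = 0.0826), and with the 2 arrays of high 25S signal left out (1.60, adjusted p = 0.110). It was also lost with array weights (1.44, adjusted p = 0.0562), with set 4 as the sole cold arrays (1.37, adjusted p = 0.122) and with the replicate number as a block (1.34, adjusted p = 0.0594). The cold difference of rpoB lay between 1.34 and 1.73 under every setting tried.

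The genes next to rpoB in its cluster did not follow it. rpoC1, for the beta′ subunit, read 9.10 and 10.41 at 22 °C and 9.78, 9.26, 10.12, 9.20 and 10.39 in cold Col-0, a difference of -0.01 (SE 0.43). rpoC2, for the beta″ subunit, read 8.10 and 8.49 at 22 °C and 8.59, 8.12, 9.41, 6.92 and 8.43 in cold Col-0, a difference of 0.00 (SE 0.55). For both genes the arrays of the groups overlapped, and the 95% intervals, -0.97 to 0.95 and -1.24 to 1.23, left room for changes of about 2-fold. rpoA, for the alpha subunit, lies elsewhere in a ribosomal protein cluster, and its difference was -0.39 (SE 0.22, adjusted p = 0.232). Of 4 measured genes with a nuclear-polymerase promoter on the list used here (rpoB, rpoC1, rpoC2 and accD), rpoB alone was called. The difference for accD, a subunit of the acetyl-CoA carboxylase of fatty acid synthesis, was -0.31 (SE 0.65). The difference between rpoB and its neighbours was not tested, and rpoB read lower than rpoC1 and rpoC2 on every array.

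Among the ribosomal protein genes, rpl33 read 11.07 and 11.19 at 22 °C, 9.91, 10.37, 10.19, 10.24 and 9.81 in cold Col-0 and 10.71 and 10.31 in WS. All 7 cold arrays lay below both arrays at 22 °C. The means were 11.13 ± 0.09 (SD, n = 2) and 10.11 ± 0.24 (n = 5), a 2.03-fold fall (SE 0.18 on the log2 scale, limma adjusted p = 0.00213). In tobacco, plants without Rpl33 are viable but sensitive to chilling. The log2 difference stood at the fold minimum, and it fell under it without 22 °C replicate 2 (-0.96), without cold replicate 1 (-0.97), without set4-2 (-0.95), without both set 4 arrays (-0.97) or with the high-25S arrays left out (-0.89). The adjusted p then ran from 0.00272 to 0.0239.

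rps18, the gene next to rpl33 and a part of the small subunit, read 10.07 and 10.18 at 22 °C and 8.84, 9.55, 9.56, 9.50 and 8.64 in cold Col-0. All of its cold Col-0 arrays were below those at 22 °C, with a difference of -0.91 (SE 0.29, limma adjusted p = 0.0455) that missed the fold minimum. The WS arrays read 10.24 and 9.54, so WS replicate 1 lay above both arrays at 22 °C. psaJ, the first gene of the same cluster and a small subunit of photosystem I, read 11.46 and 12.87 at 22 °C and 12.64, 12.64, 12.74, 12.22 and 12.42 in cold Col-0. The wide gap at 22 °C enclosed all of the cold values, and the difference was 0.37 (SE 0.31, adjusted p = 0.456). Without 22 °C replicate 2, psaJ was called higher, with a difference of 1.07 and an adjusted p of 0.00671, and without replicate 1 the difference was -0.34 with an adjusted p of 0.320.

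rps16 read 6.69 and 7.84 at 22 °C, 8.80, 8.64, 8.94, 7.98 and 7.72 in cold Col-0 and 9.17 and 8.20 in WS. The cold arrays stood higher except set4-2, which lay below replicate 2 at 22 °C, and the difference of 1.15 (SE 0.42, adjusted p = 0.0737) was not called. It was called, at 1.32 with an adjusted p of 0.0358, without set4-2, and at 1.73 with an adjusted p of 0.0413 without 22 °C replicate 2. rps4 had the lowest difference of the rps genes, -0.94 (SE 0.42, adjusted p = 0.137), and rpl22 the highest of the rpl genes, 0.21 (SE 0.32). Of the 7 rpl genes 6 had a negative difference, with a median of -0.48, and of the 8 rps genes 6 did, with a median of -0.12.

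**Figure D3:**
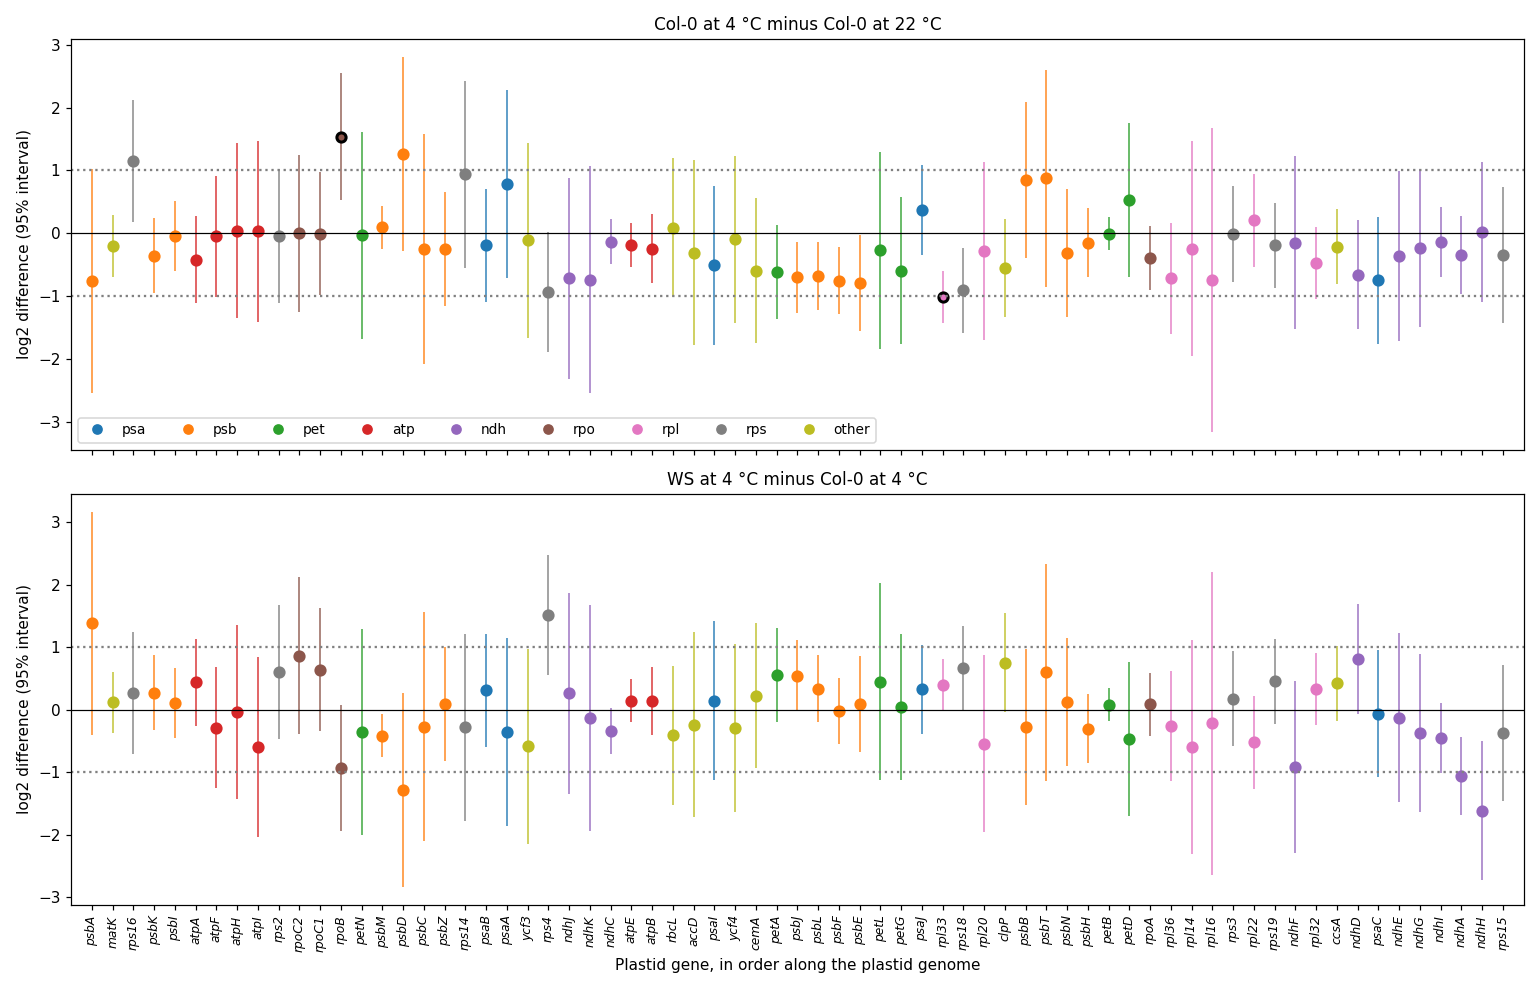
Log2 difference and 95% interval of each plastid gene for cold Col-0 minus Col-0 at 22 °C (top) and for cold WS minus cold Col-0 (bottom), in order along the plastid genome, coloured by subunit group, with dotted lines at 2-fold and called genes ringed in black. The ringed genes are rpoB at 1.54 and rpl33 at -1.02 in the top panel, and no gene is ringed in the bottom panel.

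In photosystem II, the neighbouring genes psbE and psbF, which encode the subunits of cytochrome b559, and psbL and psbJ, which encode small subunits, gave the tightest group. psbF read 12.14 and 12.40 at 22 °C, 11.21, 11.50, 11.36, 11.87 and 11.62 in cold Col-0 and 11.88 and 11.11 in WS. All 7 cold arrays lay below both at 22 °C, and the cold Col-0 difference was -0.76 (SE 0.23, limma adjusted p = 0.0336). psbE read 10.77 and 11.51 at 22 °C and 9.93, 10.35, 10.17, 10.74 and 10.54 in cold Col-0, a difference of -0.79 (SE 0.33, adjusted p = 0.112). psbJ read 10.34 and 10.80 at 22 °C and 9.42, 10.02, 10.04, 10.32 and 9.55 in cold Col-0, a difference of -0.70 (SE 0.24, adjusted p = 0.0598). For psbE, psbF and psbJ the cold Col-0 arrays did not overlap those at 22 °C, with gaps of a few hundredths between the closest arrays of psbE and psbJ. psbL read 9.21 and 9.81 at 22 °C and 8.55, 8.89, 8.84, 9.22 and 8.65 in cold Col-0. Its set4-1 array overlapped the 22 °C arrays, and the difference was -0.68 (SE 0.23, limma adjusted p = 0.0561). WS replicate 1 lay between the 22 °C arrays for psbE (11.03), psbJ (10.52) and psbL (9.45). WS replicate 2 lay below them for each (9.85, 10.31 and 8.88). In all, 5 of 69 genes had every cold Col-0 array below both arrays at 22 °C (psbE, psbF, psbJ, rpl33 and rps18), against 19.2% of all probe sets. Here psbE, psbF and psbJ are neighbours, and so are rpl33 and rps18. Genes within each stretch may share RNAs, so they are not separate measurements of the condition.

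psbD, which encodes the D2 reaction centre protein, had the highest difference of the psb genes. It read 8.82 and 9.47 at 22 °C, 10.87, 10.83, 11.01, 8.50 and 10.86 in cold Col-0 and 9.90 and 8.35 in WS. Of the 5 cold Col-0 arrays, 4 stood near 11 and set4-1 fell below both arrays at 22 °C, and the difference of 1.27 (SE 0.68, adjusted p = 0.216) was not called. Without set4-1 it was 1.75 with an adjusted p of 0.00956 and was called. psbC, the next gene of the cluster and the CP43 antenna protein of photosystem II, read 10.01 and 11.90 at 22 °C and 11.08, 11.07, 11.69, 8.61 and 11.09 in cold Col-0. Its groups overlapped, with a difference of -0.25 (SE 0.81). psbA, for the D1 protein, read 10.52 and 12.70 at 22 °C and from 9.27 to 12.54 in cold Col-0, a difference of -0.76 (SE 0.79), and its spread left any change of that size unresolved. Over the 15 psb genes, 11 differences were negative and 4 positive, with a median of -0.25.

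**Figure D4:**
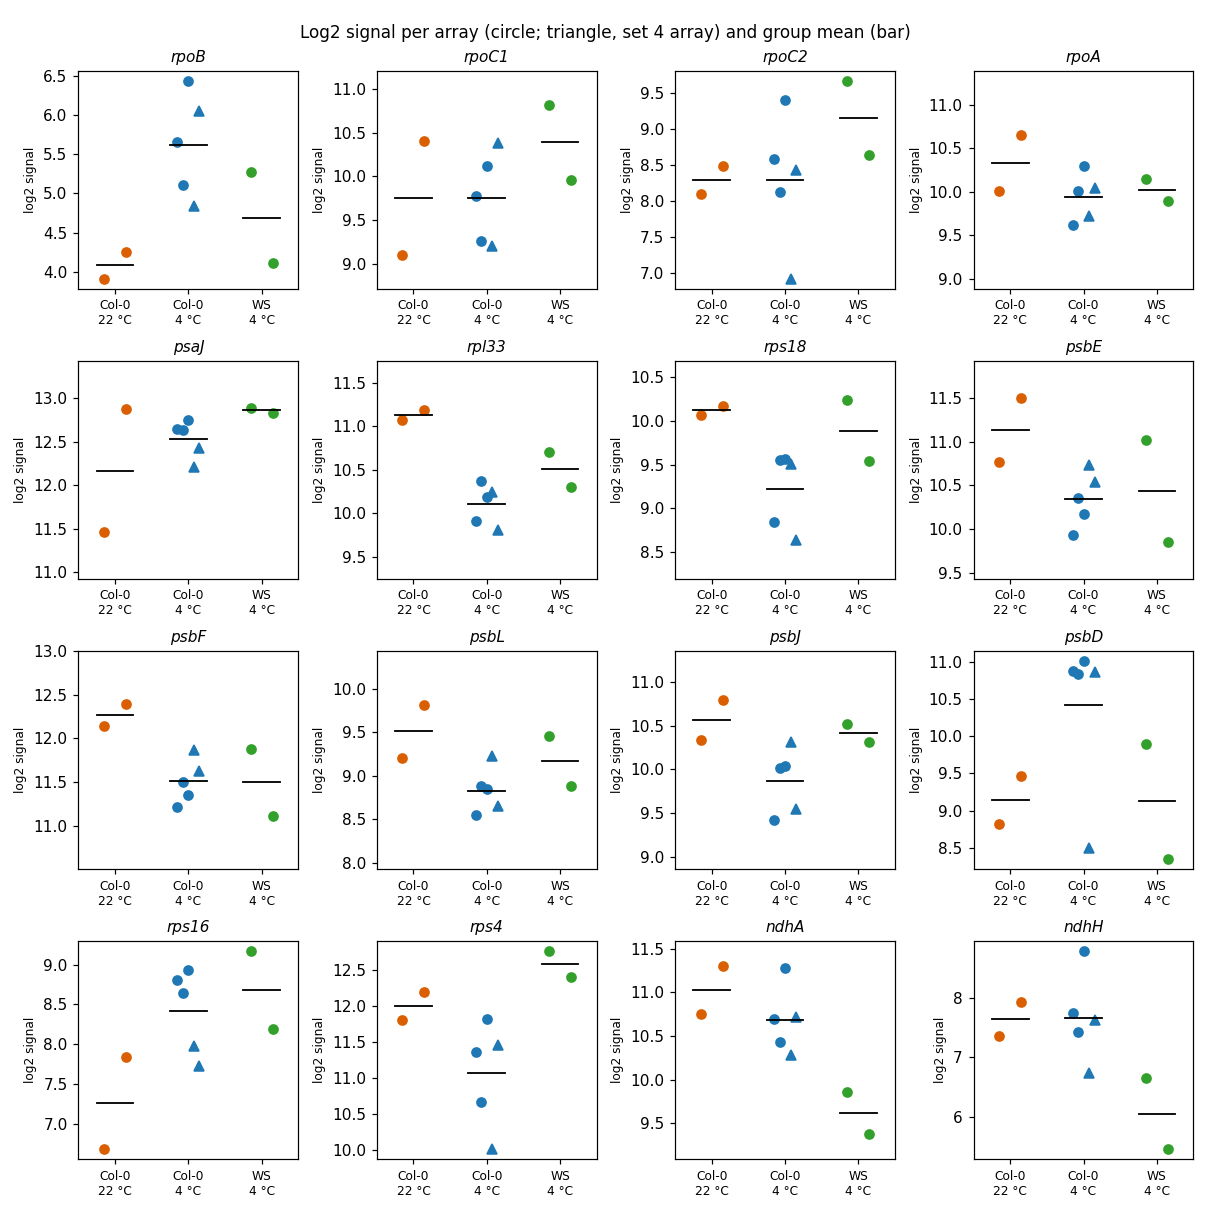
Log2 signal per array of 16 plastid genes that the text describes, by group (orange, Col-0 at 22 °C; blue, Col-0 at 4 °C, with triangles for the set 4 arrays; green, WS at 4 °C), with bars at the group means and a separate vertical range in each panel. The cold Col-0 points lie above the 22 °C points for rpoB and below them for rpl33, rps18 and psbF, and the WS points lie apart from cold Col-0 for ndhA, ndhH and rps4.

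No gene of the other photosynthetic complexes was called. In photosystem I, psaA, for a reaction centre protein, had the highest difference, 0.78 (SE 0.66, adjusted p = 0.454), and psaC, for the iron-sulphur subunit, the lowest, -0.75 (SE 0.44). In the cytochrome b6f complex, petD, for subunit IV, stood highest at 0.53 (SE 0.54), and petA, for cytochrome f, lowest at -0.62 (SE 0.33, adjusted p = 0.207). petL was called lower without 22 °C replicate 1 and higher without replicate 2, so the 22 °C arrays alone set its direction. In ATP synthase, atpH, for the ring subunit, had a difference of 0.04 (SE 0.61) and atpA, for the alpha subunit, -0.42 (SE 0.30). Of the 10 ndh genes 9 were negative, with a median of -0.29, from ndhK at -0.74 (SE 0.79) to ndhH at 0.02 (SE 0.49).

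The genes of single functions were not called either. rbcL, for the large subunit of Rubisco, read 10.74 and 11.48 at 22 °C and 11.75, 10.53, 11.56, 10.44 and 11.73 in cold Col-0, a difference of 0.09 (SE 0.49). clpP, for a protease subunit, had a difference of -0.55 (SE 0.34, adjusted p = 0.288), and cemA, for a protein of the envelope membrane, -0.60 (SE 0.51). matK, for the intron maturase, had -0.21 (SE 0.21) and ccsA, which acts in cytochrome c assembly, -0.21 (SE 0.26). The arrays of the groups overlapped for each of these 5 genes.

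Since most plastid genes moved together from array to array, the fit was repeated with the plastid mean of each array as a term. This setting was chosen after the data were seen, and the term is computed from the same 69 genes. A slope was fitted for each gene, so the fitted differences are adjusted for the plastid mean rather than taken relative to it. The median standard error fell to 0.26. In this fit 4 of 69 genes were called in the cold comparison, rpoB (1.73), psbD (1.55), rps16 (1.28) and rpl33 (-1.02), against 12.0% of all probe sets. Minus the plastid mean of its array, psbD stood at -0.56 and -0.91 at 22 °C, at 1.13, 1.31, 0.84, -0.54 and 0.81 in cold Col-0 and at -0.16 and -0.99 in WS. The low set4-1 value of psbD thus moved from below to just above the 22 °C arrays. WS replicate 1 lay above both 22 °C arrays, between set4-1 and the other cold Col-0 arrays, and WS replicate 2 lay below both. On the same scale rpoB read -5.47 and -6.12 at 22 °C, -4.08, -4.41, -3.73, -4.20 and -4.00 in cold Col-0 and -4.79 and -5.23 in WS, so the cold Col-0 arrays were closer together and all cold arrays lay above those at 22 °C. rps16 read -2.70 and -2.53 at 22 °C and -0.94, -0.88, -1.23, -1.06 and -2.33 in cold Col-0, with set4-2 near the 22 °C arrays. The lower values of rpl33 in cold did not stay apart on this scale. It read 1.69 and 0.82 at 22 °C, and cold Col-0 replicate 2 (0.86) and set4-1 lay between them. The groups also overlapped for rps18, psbE, psbF and psbJ, and set4-1 lay above both 22 °C arrays for psbE, psbF and psbJ. By contrast, rps4 and petA had every cold Col-0 array below both arrays at 22 °C on this scale alone.

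The second comparison set WS at 4 °C against Col-0 at 4 °C. No plastid gene was called in limma (0 of 69, against 2.14% of all probe sets), and 6 of 69 had an unadjusted p under 0.05, against 19.2% of all. The median difference was 0.08 against 0.01 over all probe sets, with 36 positive and 33 negative. It was -0.23 without WS replicate 1 and 0.40 without WS replicate 2, so its sign rested on single arrays. Both WS arrays carried the poly(A) spike-in and, of the cold Col-0 arrays, set4-2 alone did, so accession and spike-in can be told apart only through set4-2.

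The lowest adjusted p-values were at 2 ndh genes and a ribosomal protein gene. ndhA, an integral membrane subunit of the NADH dehydrogenase-like complex, read 10.69, 10.43, 11.28, 10.28 and 10.71 in cold Col-0 and 9.86 and 9.38 in WS. ndhH, a gene of the same cluster, read 7.75, 7.43, 8.79, 6.74 and 7.63 in cold Col-0 and 6.65 and 5.46 in WS. In both genes each WS array lay below all cold Col-0 arrays, set4-2 included. Each also lay below both Col-0 arrays at 22 °C, which read 10.75 and 11.30 for ndhA. The differences were -1.06 (SE 0.27, limma adjusted p = 0.0588) for ndhA and -1.61 (SE 0.49, adjusted p = 0.100) for ndhH. rps4 read 11.37, 10.67, 11.83, 10.02 and 11.47 in cold Col-0 and 12.77 and 12.41 in WS, with both WS arrays above all others in the series, and its difference was 1.52 (SE 0.42, adjusted p = 0.0779). With the spike-in as a term the differences were -1.10 for ndhA, -1.58 for ndhH and 1.12 for rps4, with adjusted p of 0.269, 0.386 and 0.458.

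Among the other genes with large differences, psbD stood lower in WS (-1.29, SE 0.68) and psbA (1.38, SE 0.79) and rpoC2 (0.87, SE 0.55) higher, with adjusted p from 0.353 to 0.452 and overlapping arrays. Without set4-1 the psbD difference was -1.76 with an adjusted p of 0.0455 and was called. rpoB was 0.93 log2 units lower in WS (SE 0.44, adjusted p = 0.294) and rpl33 0.40 higher (SE 0.18, adjusted p = 0.255), neither past the threshold. Both WS arrays lay above all cold Col-0 arrays for 2 of 69 genes, rps4 and psaJ, against 12.1% of all probe sets. They lay below for 4 of 69, ndhA, ndhH, ndhC and psbM, against 11.3%. For psaJ the WS arrays read 12.89 and 12.83, and for psbM, a small photosystem II subunit with cold Col-0 values from 12.90 to 13.21, they read 12.45 and 12.83. With the plastid mean as a term, 3 of 69 genes were called in this comparison (ndhA, ndhH and rps4), against 2.05% of all probe sets.

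Of the 7 genes from ndhH to ndhD, 6 were lower in WS, with a median of -0.37, and ndhD was higher at 0.81. ndhI and ndhG, which lie between ndhA and ndhD, had differences of -0.45 and -0.37. The low WS values were thus largest in size at ndhA and ndhH, which neighbour each other.

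WS at 4 °C against Col-0 at 22 °C shares arrays with both comparisons above, and accession and temperature differ in it together. ndhA was the single plastid gene called, lower by 1.41 on the log2 scale in WS (SE 0.32, limma adjusted p = 0.0102), which makes 1 of 69 against 14.2% of all probe sets. The call was lost without 22 °C replicate 2 (-1.13, adjusted p = 0.0695) or without WS replicate 2 (-1.17, adjusted p = 0.0778). It was also lost with the high-25S arrays left out (-1.13, adjusted p = 0.0816) and with the spike-in as a term (-1.45, adjusted p = 0.0867). ndhH had the largest difference in size of the 69 genes, -1.59, but was not called with all arrays. It was called under some other settings, among them an intensity trend, centred arrays, dim probe sets left out and a replicate block. For rpl33 the values were -1.02 in cold Col-0 and -0.62 in cold WS, each against the same arrays at 22 °C, and for rpoB they were 1.54 and 0.61. For rps16 they were 1.15 and 1.42, and for psbF -0.76 and -0.77. The neighbours of psbF had -0.79 and -0.70 (psbE), -0.68 and -0.34 (psbL) and -0.70 and -0.15 (psbJ). For rps18 the values were -0.91 and -0.23.

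Between the set 4 arrays and the other cold Col-0 arrays, no plastid gene was called in limma (0 of 69, against 0.00440% of all probe sets), and 5 of 69 had an unadjusted p under 0.05, against 10.6% of all. The lowest differences were at rpl16 (-1.78), psbC (-1.43) and psbD (-1.23), and the highest at rps14 (1.32), ndhF (1.11) and psbT (0.58). These extremes rested on single arrays: rpl16 read 7.05 on set4-1 and 9.77 on set4-2, and rps14 read 4.55 and 6.94. The median over the 69 genes was -0.23 with both set 4 arrays, 0.18 without set4-1 and -0.64 without set4-2.

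Of the 7 plastid genes with shared probe sets (rpl2, rpl23, rps7, rps12, ndhB, ycf1 and ycf2), none was called in the cold comparison in limma and none had an unadjusted p under 0.05, with a median difference of -0.13. They ran from rps12, for a ribosomal protein, at -0.87 to ndhB, for a membrane subunit of the NADH dehydrogenase-like complex, at 0.43, and ycf1 and ycf2, both large open reading frames, had -0.10 and 0.30. Likewise none of the 11 mitochondrial genes was called in cold or had an unadjusted p under 0.05, with a median of 0.04.

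Of 39 nuclear genes of plastid transcription and RNA handling, 3 had a probe set listed for that gene alone. AT5G15700 read 5.07 and 5.10 at 22 °C, 6.76, 6.56, 6.88, 6.60 and 6.40 in cold Col-0 and 6.06 and 6.35 in WS. All cold arrays lay above those at 22 °C, and the gene was called in the cold comparison, 2.95-fold higher (SE 0.15 on the log2 scale, limma adjusted p = 7.21e-05). RH39, a helicase that acts on plastid ribosomal RNA, had a cold difference of 0.70 (SE 0.17, adjusted p = 0.0137), under the fold minimum, and AT2G37220 one of 0.32 (SE 0.15, adjusted p = 0.152). Of the 2 green tissue markers measured, the light-harvesting gene LHCB4.2 was called lower in cold (-1.86, SE 0.29, adjusted p = 0.00123) and LHCB4.1 had a difference of -0.52. None of the 3 root markers measured was called.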

How the data were processed

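The authors deposited log2 signals, 1 per probe set and array, made by RMA with the R package affy, per the submitters' processing notes. Versions and detection calls are not given in the sources used here, so no detection limit was set. After removal of 64 controls, 22746 probe sets were tested. The annotation listed 1 gene for 13513 of them, several for 503 and none for 8730. Names and gene order came from RefSeq TAIR10.1. Coordinates served only to put the genes in order, and no sequences were used.

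Group means were fitted to all 9 arrays with limma 3.58.1 (lmFit and eBayes) in R 4.3.3, with 6 residual degrees of freedom. The set 4 contrast, which used 4 group means, and the fit with the plastid mean as a term had 5. Benjamini-Hochberg adjustment ran over every tested probe set, and a call needed an adjusted p under 0.05 and a log2 difference of at least 1 in size. The script was tested on simulated data.

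The members, gene lists and rules were chosen with earlier results of these data known. The rule named every called gene, the highest and lowest of each subunit group in the cold contrast, the 3 highest and 3 lowest in the WS and set 4 contrasts, the 4 rpo genes and the genes of single functions. petL, petB, psaJ, psbF, psbL, psbJ, psbM, rps18, ndhC, ndhD, ndhG, ndhI and the genes listed by array pair were named after their values were seen. The labels do not pair same-numbered arrays, so arrays were treated as unpaired. Same-numbered arrays correlated at -0.35 to 0.24 in their deviations from the 4 group means that keep set 4 apart. In a group of 2 arrays these deviations mirror each other, so the correlations cannot decide whether arrays were paired. Alternatives covered the normalization, filters, variance model, set 4, left-out arrays and a replicate block.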

Additional observations from a re-analysis of the deposited data

Results flagged for a closer look

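In the group of 5 cold Col-0 arrays, 5 of 69 plastid genes had an array far from the other 4 by Dixon's criterion at the 95% level. Chance alone meets it in about 1 in 20 groups, so a few of 69 genes would meet it at that rate. The criterion was not run on other probe sets, so the share over all of them is not known. Array set4-1 also had the lowest plastid mean, 9.04. On set4-1, psbD read 8.50 where the other arrays began at 10.83, psbC read 8.61 where they began at 11.07, atpB (the beta subunit of ATP synthase) read 12.45 where they began at 13.20, and psbN (a photosystem II assembly factor) read 4.53 where they began at 5.92. On set4-2, rps14, a ribosomal protein gene next to psaB, read 6.94 where the others ended at 4.90. psbD and psbC are neighbours, so their low values are not separate observations.

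Control probe sets outside the comparisons also carried signal on some cold arrays. The poly(A) spike-in averaged 7.10 on set4-2, 7.17 on WS replicate 1 and 7.31 on WS replicate 2, above the 3.32 and 3.14 of the arrays at 22 °C. The 25S ribosomal RNA probe set read 11.34 on set4-2, above the 6.49 and 10.72 of the arrays at 22 °C. The part of these signals in the plastid values was not tested.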

How the results depend on the processing

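The differences called with all arrays, rpoB and rpl33 in cold Col-0 and ndhA in WS against Col-0 at 22 °C, kept their sign under every setting run for them. The number of plastid genes called in the cold Col-0 contrast, 2 with all arrays, was 1 with array weights (rpl33), 1 with set 4 as the sole cold arrays (rpl33), 4 with no fold minimum, 3 with dim probe sets left out (rps16 added), 3 with set 4 left out (rpoB, psbD and rps16), and from 0 (without cold replicate 1) to 5 (without 22 °C replicate 1) with 1 array left out. With set 4 as a term it was 2, but rpoB and rps16. For WS against cold Col-0 the number was 0 with all arrays. It was 2 with an intensity trend and 2 with arrays centred on their medians, ndhA and rps4 in each. A further quantile normalization gave 1 and leaving out dim probe sets gave 1, ndhA in each. With 1 cold Col-0 array left out it was 0 to 1, the 1 being psbD without set4-1. For WS against Col-0 at 22 °C, 1 with all arrays, it was 3 with an intensity trend, 3 with centred arrays, 3 without dim probe sets, 2 with set 4 left out, 2 with set 4 as a term, and 0 (without WS replicate 2) to 4 with 1 array left out. Its median difference of -0.23 ran from -0.60 to 0.30 with 1 array left out, the latter without 22 °C replicate 2. A replicate block gave 1 call in the cold contrast (rpl33), 0 for WS against cold Col-0 and 2 against Col-0 at 22 °C. Of the settings chosen after the data were seen, the plastid mean as a term gave 4, 3 and 4 calls in these contrasts. The spike-in as a term gave 2 (rpoB and rps16), 1 (rps14) and 2. Leaving out the 2 arrays with high 25S signal gave 4 (petL, psaJ, psbT and rps16), 0 and 4, with a median of 0.30 in the last contrast. The set 4 contrast had 0 calls under every setting run for it, which did not include the set 4 settings or those chosen after the data were seen. Averaging a gene's probe sets changed nothing, since each gene had 1. The cause of these moves was not tested. The number of arrays and the spread among them limit what can be resolved.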
